A study of Mus musculus with 3 samples.

Results

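The genes described here are 41 imprinted genes of the mouse, that is, genes transcribed mainly from the copy inherited from 1 parent. They form a list of genes known to be imprinted, and every array probe carrying the symbol of a listed gene was taken. Of the 41 genes, 40 had at least 1 probe on the array and Rian had none. Their 77 probes stood among 55681 non-control probes, and 71 probes of 37 genes passed the filter on dim probes, against 32983 probes in all. Rtl1, Peg10 and Phlda2 had probes that did not pass. By textbook knowledge, 21 genes of the list are classed as expressed from the paternal copy and 17 from the maternal copy. The other 3 (Gnas, Grb10 and Ddc) are set apart because their active copy depends on the tissue or the promoter. The classes were not measured here, and a gene classed by parent need not be imprinted in the tissue studied.

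The study compared gene expression in the dorsal cortex of wild-type and Brpf1-deficient mouse pups at postnatal day 4, with no treatment. On each of 3 2-colour arrays, amplified RNA from 1 wild-type pup was labelled with Cy3 and amplified RNA from 1 Brpf1-deficient pup with Cy5, and the labels number these pairs 1 to 3. The labels name neither the deleted allele nor a Cre driver, and they give no strain, sex or litter, so which cells lacked Brpf1 is not stated in the sources used here. No dye was swapped, so a dye effect of a probe and its difference between the genotypes cannot be told apart. P-values rest on the spread between these 3 pairs, moderated by that of all probes.

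Each value is the log2 ratio of Cy5 over Cy3 after background correction and loess normalization within each array, which is meant to remove trends of the ratio with brightness. A trend remained for the brightest probes: at the brightness of the called Snrpn and Gnas probes the median ratio of all probes was 0.26. Errors are standard deviations over the 3 arrays. A probe was called where its ratio differed from 0 in limma's moderated test with a Benjamini-Hochberg adjusted p under 0.05 over all 32983 kept probes, and a gene was represented by its brightest kept probe. Brpf1, the gene lost in 1 genotype, had ratios of 0.62, 0.73 and 0.96 on arrays 1, 2 and 3. It was thus brighter on every array in the channel labelled Brpf1-deficient, by 1.71-fold (adjusted p = 0.00452 in limma), and the labels do not say whether its probe lies in the deleted part. In the authors' deposited table its log2 fold change was -0.80, and all 55 kept probes of imprinted genes listed there also had the opposite sign to the ratio used here. Each direction below is therefore given by channel: above 0 means more signal in Cy5 (the Brpf1-deficient pup by the labels), and below 0 more in Cy3 (the wild-type pup by the labels). Which genotype is higher is not settled, and all signs turn together if the channels were exchanged.

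Imprinted genes keep a mark of DNA methylation from the egg or sperm, and this mark decides in the body's cells which parental copy is transcribed. Most lie in clusters, where a methylated control region acts on several genes at once, so that protein-coding genes of the paternal copy often neighbour noncoding RNAs of the maternal copy. Many act in fetal growth, and in the brain several are expressed in neurons and bear on feeding, behaviour and hormone release. BRPF1 is a scaffold of complexes that acetylate histone H3. The arrays measured the RNA of both copies together and cannot tell the parental copies apart, and in bulk tissue fewer cells of a type and less RNA per cell cannot be told apart.

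The promoters of 4 called genes and of Meg3 are shown because Dlk1 and Dio3, at the ends of one cluster, were both brighter in Cy5, Nnat and Plagl1 were brighter in Cy3 with at least 2 probes each, and Meg3 lies between Dlk1 and Dio3. Each run is the 250 bases before the annotated start from RefSeq's GRCm38.p6, on the plus strand, 5′ to 3′. The windows are chr12:109452573-109452822 for Dlk1, chr12:110278980-110279229 for Dio3, chr2:157559828-157560077 for Nnat, chr10:13090582-13090831 for Plagl1 and chr12:109540746-109540995 for Meg3. Capitals mark CG dinucleotides, the sites of DNA methylation, in the first 4, and the cAMP response element letters TGACGTCA in Meg3.
Dlk1: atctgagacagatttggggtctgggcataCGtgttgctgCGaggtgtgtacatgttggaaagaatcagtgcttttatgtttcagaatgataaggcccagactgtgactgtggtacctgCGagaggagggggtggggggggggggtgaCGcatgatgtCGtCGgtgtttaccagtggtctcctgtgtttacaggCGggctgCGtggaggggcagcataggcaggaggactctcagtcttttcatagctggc
Dio3: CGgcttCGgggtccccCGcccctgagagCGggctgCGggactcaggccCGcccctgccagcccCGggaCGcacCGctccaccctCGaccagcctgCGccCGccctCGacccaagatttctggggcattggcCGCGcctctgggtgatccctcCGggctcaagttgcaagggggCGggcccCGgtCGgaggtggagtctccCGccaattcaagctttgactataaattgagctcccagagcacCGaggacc
Nnat: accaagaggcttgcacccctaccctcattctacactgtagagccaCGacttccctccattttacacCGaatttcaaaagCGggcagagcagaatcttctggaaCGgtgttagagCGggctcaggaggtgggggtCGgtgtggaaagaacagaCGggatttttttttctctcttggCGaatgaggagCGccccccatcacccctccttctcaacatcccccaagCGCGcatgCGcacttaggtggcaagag
Plagl1: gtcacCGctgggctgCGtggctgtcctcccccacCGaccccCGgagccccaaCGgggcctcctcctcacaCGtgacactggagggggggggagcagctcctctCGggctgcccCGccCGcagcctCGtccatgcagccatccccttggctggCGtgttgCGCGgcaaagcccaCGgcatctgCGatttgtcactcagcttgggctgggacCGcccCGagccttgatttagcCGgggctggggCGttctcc
Meg3: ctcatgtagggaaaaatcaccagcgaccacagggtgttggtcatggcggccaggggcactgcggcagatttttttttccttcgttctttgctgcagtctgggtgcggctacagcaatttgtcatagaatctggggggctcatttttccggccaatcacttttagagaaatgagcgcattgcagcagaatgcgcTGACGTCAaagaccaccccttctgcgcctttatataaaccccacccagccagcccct

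The window of Dio3 held 21 CG dinucleotides, that of Plagl1 19, that of Nnat 12 and that of Dlk1 8. Over windows of 300 bases, which add 50 bases after the start, 55 windows of 35 imprinted genes had a median of 13 CG dinucleotides. The median was 7 over all 32851 windows. For the imprinted genes chromosome 18, where Impact lies, was left out, here and in the motif counts. Searched on both strands, TGACGTCA occurred in windows of 3 imprinted genes (Meg3, Peg3 and Usp29) and in 1.79% of all windows. The letters GCCATNTT, the core of YY1 sites, occurred in windows of 3 imprinted genes (Mkrn3, Slc38a4 and Ube3a) and in 6.05% of all windows. The palindrome GGGGCCCC occurred in windows of 4 imprinted genes (Peg3, Ppp1r9a, Rasgrf1 and Usp29) and in 1.08% of all windows. The windows of Peg3 and Usp29 face opposite ways and share 263 bases, so both motifs found there are the same letters counted for both genes.

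Of the 37 genes measured, 11 were called (29.7%), against 16.8% of all 23306 genes by the same rule. Of these, 5 were brighter in Cy5 (Dlk1, Dio3, Snrpn, Gnas and Ndn), against 7.74% of all genes. The other 6 were brighter in Cy3 (Mirg, Slc38a4, Impact, Plagl1, Nnat and Ppp1r9a), against 9.04% of all genes. Each of the 11 had the same sign on all 3 arrays, and 10 of them differed by less than 1.5-fold. With the median ratio of each of 50 brightness classes set to 0, only 1 gene (Dio3) was called brighter in Cy5 and 5 in Cy3. Over all probes 5172 were then called, against 5568. Over probes, 16 of 71 were called (22.5%) against 16.9% of all kept probes, 6 of them brighter in Cy5 (7.49% of all kept probes were) and 10 in Cy3 (9.39% were), with folds of 1.21 to 1.73. Of all called probes 44.4% were brighter in Cy5, and with median centring of each array in place of loess 80.4% were.

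The number of calls depended on the arrays used, in all probes as in imprinted genes: of 5568 probes called in all, 2217 were called without array 3, 4398 without array 1, 5698 without array 2 and 968 unpaired (counts of calls, not of shared probes). Without array 3, Mirg alone of the 11 genes remained called, and the adjusted p of the other 10 genes was 0.0501 to 0.153 in limma, with 0 genes called in Cy5 and 1 in Cy3. Without array 1, 2 genes were called in Cy5 and 7 in Cy3, and without array 2, 5 and 6, with 8 of the 11 calls kept each time. A fit on 2 arrays leans on variances pooled over probes, so its adjusted p follows the size of the ratio more than the spread between arrays. With the 6 channels fitted as unpaired samples, none of the 11 was called by limma, although 15 of the 37 genes had an unadjusted p under 0.05. In the authors' deposited table no probe of an imprinted gene passed an adjusted p of 0.05, the smallest being 0.240, and 19 of the 59 listed had an unadjusted p under 0.05.

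Among the 19 paternally expressed genes measured, 4 were called in each direction (42.1% in all, against 16.8% of all genes) and 11 were not called. Their median log2 ratio was 0.02, and on arrays 1, 2 and 3 it was -0.00, 0.01 and 0.06. Among the 15 maternally expressed genes measured, 2 (Mirg and Ppp1r9a) were called in limma, 13.3% against 16.8% of all genes. Both were brighter in Cy3, and none was called brighter in Cy5. By direction, 7.74% of all genes were called brighter in Cy5 and 9.04% in Cy3. The median of the maternally expressed genes was -0.05, with medians of -0.09, -0.09 and -0.06 on the arrays. The median over all 23306 genes was -0.01. The median size of the ratio, without its sign, was 0.22 in paternally and 0.17 in maternally expressed genes, against 0.14 over all genes. The medians of both classes thus lay near 0, and the paternally expressed genes ranged from -0.39 to 0.39 with calls on both sides. With median centring in place of loess, the medians were 0.15 and 0.07, and that of all kept probes was 0.07.

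**Figure D1:**
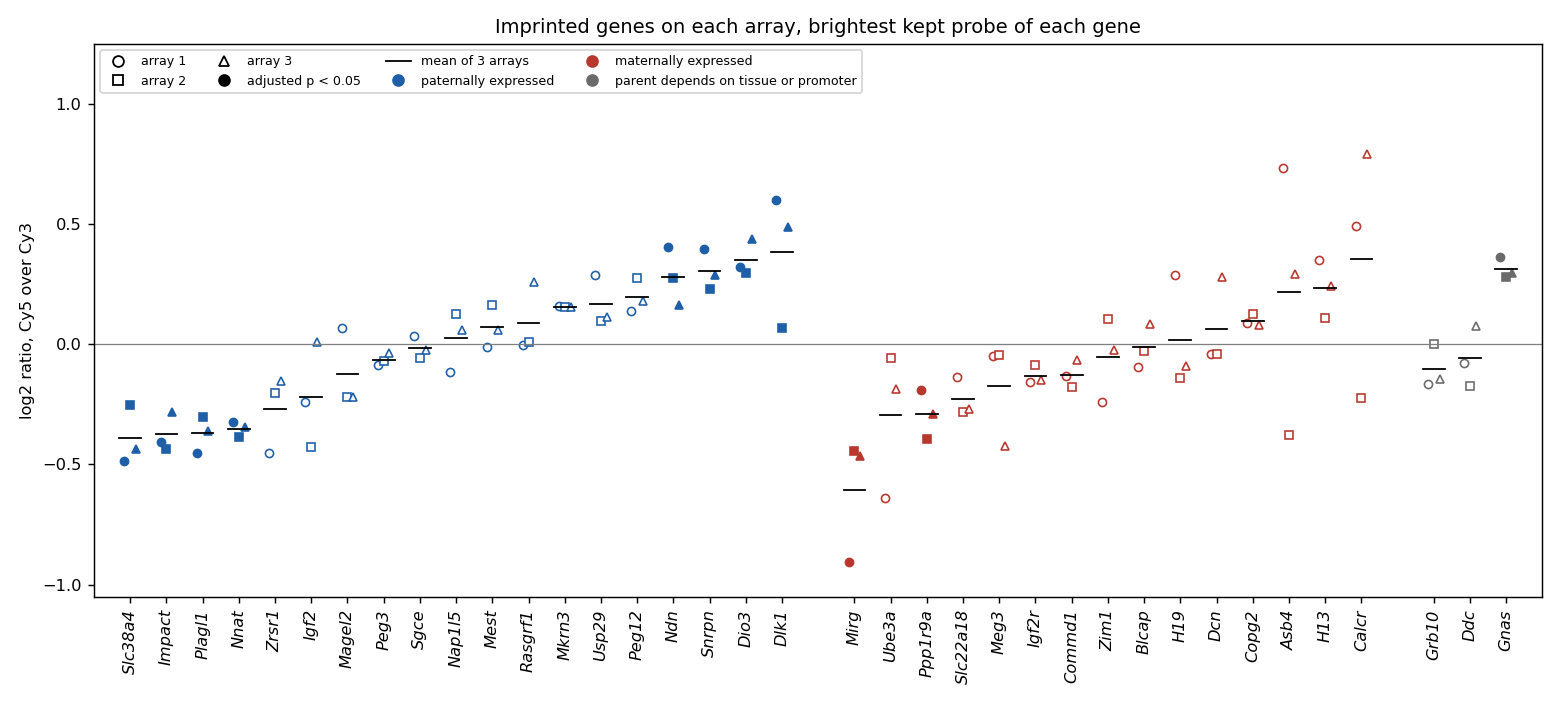
Log2 ratio of Cy5 over Cy3 (vertical axis) of the brightest kept probe of each of the 37 imprinted genes, by parental class; circles, squares and triangles are arrays 1, 2 and 3, bars the mean of 3 arrays, and filled symbols genes with an adjusted p under 0.05. Called paternally expressed genes lie on both sides of 0 (4 and 4). The only called maternally expressed genes, Mirg and Ppp1r9a, lie below it (13.3% of the class, against 16.8% of all genes called). With median centring in place of loess, Nnat lies above 0 at 0.06.

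The cluster on chromosome 12 joins the paternally expressed genes Dlk1, Rtl1 and Dio3 with the noncoding RNAs Meg3, Rian and Mirg of the maternal copy. DLK1 is a membrane ligand related to the Notch ligands that holds back differentiation, and its probe had ratios of 0.60, 0.07 and 0.49 on arrays 1, 2 and 3. The ratio was near 0 on array 2 and high on the others, with a mean of 0.39 ± 0.28 (SD, n = 3; 1.31-fold, adjusted p = 0.0495 in limma). The dimmer Dlk1 probe had the same order over the arrays, 0.42, 0.03 and 0.23, and was not called (adjusted p = 0.114 in limma). Without array 1 or array 3 Dlk1 was not called (adjusted p = 0.124 and 0.153 in limma), and without array 2 its ratio was 0.54. Dio3 encodes the deiodinase that inactivates thyroid hormone, and its only probe gave 0.32, 0.30 and 0.44. These values lay close together, with a mean of 0.35 ± 0.08 (SD, n = 3; 1.28-fold, adjusted p = 0.0229 in limma, and 0.114 without array 3).

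The noncoding RNAs of the same cluster differed by probe. Mirg is the host transcript of a group of microRNAs, and its brightest probe had ratios of -0.91, -0.44 and -0.47, a mean of -0.61 ± 0.26 (SD, n = 3; 1.52-fold, adjusted p = 0.0147 in limma). It was brighter in Cy3 on every array and remained called without any 1 array, with adjusted p-values of 6.33e-05 to 0.0185 in limma. The second probe, the only 1 of the 3 named by a RefSeq accession, gave 0.25, -0.02 and -0.04, a mean of 0.06 (adjusted p = 0.615 in limma). The dimmest gave 0.11, 0.22 and 0.19 and was not called either, so the 3 probes of Mirg lay on both sides of 0. The call thus holds for 1 probe, not for Mirg as a whole. Meg3 is a long noncoding RNA, and its dimmest probe gave -1.19, -0.42 and -0.77, a mean of -0.79 ± 0.39 (SD, n = 3; adjusted p = 0.0142 in limma). At 1.73-fold this was the largest fold among the 16 called probes of imprinted genes, and the probe remained called without any 1 array. The brighter Meg3 probes gave -0.05, -0.05 and -0.42, and 0.10, -0.15 and -0.27, and neither was called (adjusted p = 0.219 and 0.410 in limma). In the authors' deposited table the called Meg3 probe is annotated to transcript variant 6 and the other probes to variant 5.

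The brightest Mirg probe and all Meg3 probes were named only through that table, which stops at a p-value limit, so being named depends in part on the outcome. Within each array, Dlk1 minus the brightest Meg3 probe was 0.65, 0.11 and 0.91, and Dio3 minus that probe was 0.37, 0.34 and 0.86. Both differences were above 0 on each of the 3 arrays, with means of 0.56 and 0.53. With median centring in place of loess the means were 0.16 and 0.12, and in the processed signals 0.68 and 0.84, so their size depended on the normalization.

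MicroRNAs were not measured on these arrays. The RefSeq table places 10 hairpins with 19 mature microRNAs in Mirg, of which mmu-miR-453 and mmu-miR-496a-5p share a seed, and mmu-miR-410-3p is shown beside them as one with another seed. Each is written 5′ to 3′ with its seed, bases 2 to 8, in capitals, to show what the host transcript carries.
mmu-miR-453: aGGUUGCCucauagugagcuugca
mmu-miR-496a-5p: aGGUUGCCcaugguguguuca
mmu-miR-410-3p: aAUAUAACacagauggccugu

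**Figure D2:**
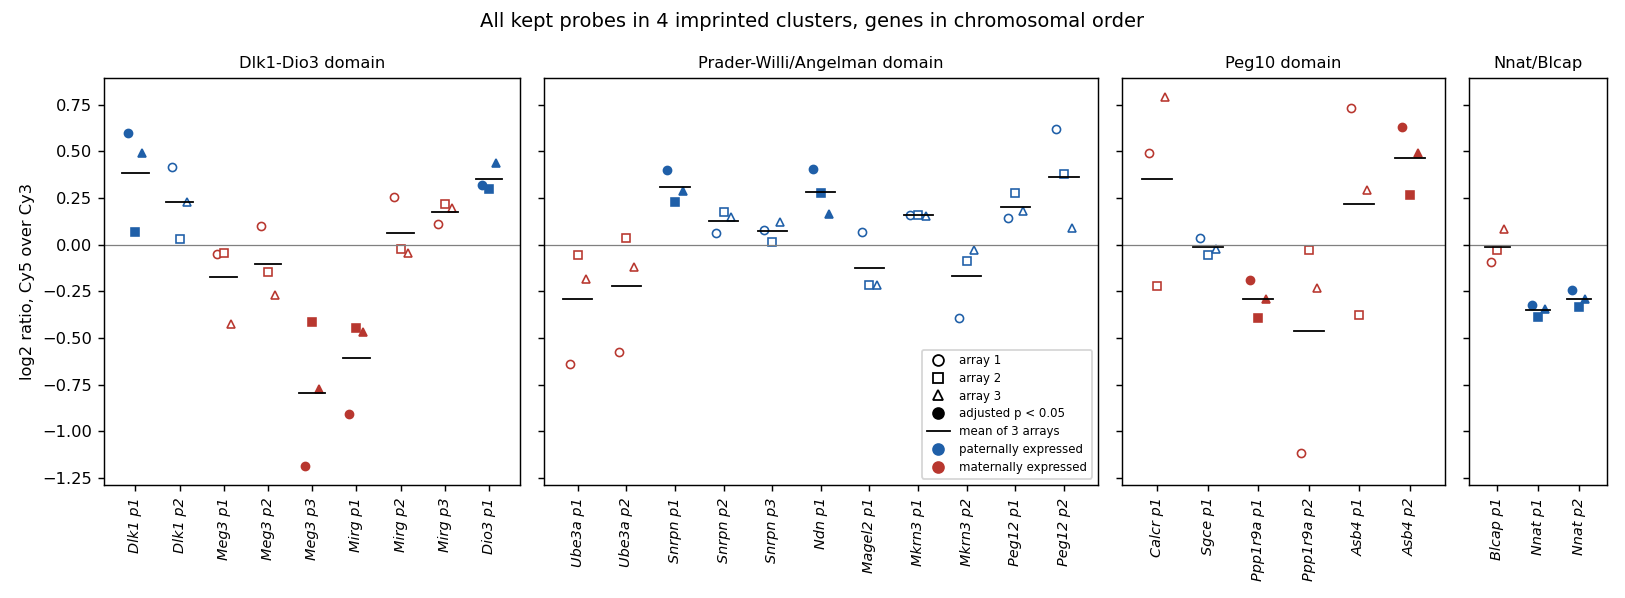
Log2 ratio of Cy5 over Cy3 (vertical axis) for every kept probe in 4 imprinted clusters, genes in chromosomal order and probes (p1, p2, p3) from brightest to dimmest; circles, squares and triangles are arrays 1, 2 and 3, bars the mean, blue paternally and red maternally expressed genes, filled symbols an adjusted p under 0.05. Dlk1 and Dio3 lie above 0 at both ends of the first panel, while a Meg3 probe (-0.79) and a Mirg probe (-0.61) lie well below other probes of the same genes; with median centring in place of loess both Nnat probes lie at 0.06.

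The Prader-Willi and Angelman domain on chromosome 7 holds 5 paternally expressed genes of the list and Ube3a, which neurons express from the maternal copy. Snrpn encodes a protein of the spliceosome, and its brightest probe gave 0.40, 0.23 and 0.29, a mean of 0.31 ± 0.09 (SD, n = 3; 1.24-fold, adjusted p = 0.0331 in limma). The other Snrpn probes lay nearer 0, with means of 0.13 and 0.07, and were not called. Ndn encodes necdin, a MAGE family protein of postmitotic neurons, and its probe gave 0.40, 0.28 and 0.16, a mean of 0.28 ± 0.12 (SD, n = 3; 1.21-fold, adjusted p = 0.0472 in limma). Both genes were brighter in Cy5 on each array. Without array 3 neither was called (adjusted p = 0.116 for Snrpn and 0.0929 for Ndn in limma); Snrpn also missed the threshold without array 1 (0.0520), and Ndn without array 1 or array 2 (0.0843 and 0.102).

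Snrpn is among the brightest probes, and at its brightness the median ratio of all probes was 0.26, whereas at the brightness of Ndn it was 0.02. Setting the median of each brightness class to 0 moved Snrpn from 0.31 to 0.04 and Ndn from 0.28 to 0.26. In the scanner software's processed signals Snrpn was 0.04 and Ndn 0.23, and with median centring they were 0.80 and 0.73. Neither gene was called with the brightness classes set to 0 or in the processed signals, where Ndn had adjusted p-values of 0.0601 and 0.140 in limma.

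The other members of this domain were not called. Magel2, a MAGE family gene, gave 0.07, -0.22 and -0.22, without a common sign. Mkrn3, a makorin that takes part in the timing of puberty, had a brightest probe at 0.16, 0.16 and 0.15 and a dimmer one at -0.40, -0.09 and -0.03. The 2 probes of Peg12 gave 0.14, 0.28 and 0.18, and 0.62, 0.38 and 0.09, positive on every array with adjusted p-values of 0.0906 and 0.0542 in limma. Ube3a encodes the ubiquitin ligase whose loss causes Angelman syndrome. Its brightest probe gave -0.64, -0.06 and -0.18 (adjusted p = 0.110 in limma), low on array 1 and near 0 on array 2, and the dimmer one -0.57, 0.04 and -0.12. Without array 2 Ube3a passed the threshold at -0.41 (adjusted p = 0.0170 in limma). Snrpn minus Ube3a was 1.04, 0.29 and 0.47 on the arrays, a mean of 0.60 that became 0.32 with each brightness class set to 0, 0.33 in the processed signals and 1.01 with median centring.

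On chromosome 2, Nnat lies within an intron of Blcap and is expressed from the paternal copy. Nnat encodes neuronatin, a small membrane protein abundant in developing neurons, and its brightest probe gave -0.32, -0.39 and -0.34. The second probe gave -0.25, -0.33 and -0.29, so both were brighter in Cy3 on every array and varied little. Their means were -0.35 ± 0.03 and -0.29 ± 0.04 (SD, n = 3; 1.28-fold and 1.22-fold, adjusted p = 0.0206 and 0.0336 in limma). Nnat was the only imprinted gene with several kept probes of which each was called. Blcap gave -0.09, -0.03 and 0.08, and Nnat minus Blcap was -0.23, -0.36 and -0.43, a mean of -0.34 that became -0.04 with median centring in place of loess. Both Nnat probes then stood at 0.06, so the direction of Nnat depends on the correction for brightness. Without array 3 the brightest Nnat probe had an adjusted p of 0.0816 in limma, and the second missed the threshold without array 2 or array 3 (0.120 and 0.134).

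Plagl1, Impact and Slc38a4 lie outside these clusters, are expressed from the paternal copy and were brighter in Cy3. Plagl1 encodes a zinc finger transcription factor that restrains proliferation. Its 2 brightest probes gave -0.45, -0.30 and -0.36, and -0.52, -0.29 and -0.35, with means of -0.37 ± 0.07 and -0.39 ± 0.12 (SD, n = 3; adjusted p = 0.0198 and 0.0211 in limma). Its 2 dimmer probes gave 0.30, -0.06 and 0.20, and 0.04, -0.05 and 0.28, so the probes of Plagl1 fell into a negative pair and a pair around 0. Impact encodes an inhibitor of the stress kinase GCN2 that is abundant in neurons, and its brightest probe gave -0.41, -0.43 and -0.28, a mean of -0.37 ± 0.08 (SD, n = 3; 1.30-fold, adjusted p = 0.0199 in limma). The dimmer Impact probe gave -0.63, -0.11 and -0.15 (adjusted p = 0.101 in limma). Slc38a4 encodes an amino acid transporter, and its only probe gave -0.48, -0.25 and -0.44, a mean of -0.39 ± 0.12 (SD, n = 3; 1.31-fold, adjusted p = 0.0211 in limma).

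These 3 genes kept a negative mean in all 14 alternatives fitted here, from -0.41 to -0.14 for Plagl1, from -0.42 to -0.26 for Impact and from -0.48 to -0.34 for Slc38a4. In some alternatives (Aquantile scaling between arrays, changed filters, 1 probe per gene and the unpaired fit) the mean was that of the main fit by construction. Without array 3 the adjusted p-values of Plagl1, Impact and Slc38a4 were 0.0727, 0.0501 and 0.0828 in limma, just past the threshold, and the second Plagl1 probe stood at 0.0636. With the median of its 4 probes Plagl1 was at -0.15 and was not called.

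The domain around Peg10 on chromosome 6 holds paternally expressed Peg10 and Sgce and maternally expressed Calcr, Ppp1r9a and Asb4. Ppp1r9a encodes neurabin, an actin-binding protein of dendritic spines, and its brightest probe gave -0.19, -0.39 and -0.29, a mean of -0.29 ± 0.10 (SD, n = 3; 1.22-fold, adjusted p = 0.0395 in limma). Its dimmer probe gave -1.12, -0.03 and -0.23, low on array 1 alone. Ppp1r9a was not called without array 2 or array 3 (adjusted p = 0.169 and 0.141 in limma), and with median centring it stood at -0.01. Sgce, a sarcoglycan, gave 0.04, -0.06 and -0.02.

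Asb4 and Calcr varied widely between the arrays. Asb4 encodes a SOCS box protein that recruits ubiquitin ligases; its brighter probe gave 0.73, -0.38 and 0.29 and was not called (adjusted p = 0.411 in limma). The dimmer Asb4 probe gave 0.63, 0.26 and 0.49, a mean of 0.46 ± 0.19 (SD, n = 3; 1.38-fold, adjusted p = 0.0191 in limma, and 0.0574 without array 3). Calcr encodes the calcitonin receptor, and its probe gave 0.49, -0.22 and 0.79 (adjusted p = 0.173 in limma). Array 2 was the lowest for all 3 probes. Without array 2 the brighter Asb4 probe stood at 0.51 and Calcr at 0.64, with adjusted p-values of 0.00268 and 0.000137 in limma. Here the array seen to be lowest was left out, and the 2 arrays left differed widely. Nnat, at -0.32 and -0.34 on the same 2 arrays, had an adjusted p of 0.0479 in limma. These small p-values thus do not measure a close agreement between the arrays.

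The arrays also differed in markers of the striatum, which lies below the dorsal cortex. All 11 striatal markers were kept and well above background, and 8 were called brighter in Cy5 and none in Cy3 by limma. Their median ratio was 1.00 on array 1, 0.24 on array 2 and 0.62 on array 3, with ranges of 0.42 to 2.58, -0.16 to 0.46 and 0.16 to 1.22. Their summed level was higher in Cy5 than in Cy3 by 1.35, 0.24 and 0.93 on the log2 scale. The probes of Dlk1, Asb4 and Calcr, singled out after their values were seen, were lowest on array 2, as the striatal median was, although Calcr was highest on array 3 and the striatal median on array 1. An array 2 minimum is common: 28 of the 71 kept probes of imprinted genes had one, a larger share than the 28.0% of all kept probes. An array 1 minimum was more common still, in 29 of the 71 and in 42.8% of all kept probes. The part of striatal RNA in these ratios was not tested. Asb4, Calcr, Ndn and Magel2 are known from the hypothalamus. Of 12 hypothalamic markers, Agrp, Pmch, Sim1 and Otp were not kept, 1 of the 8 others was called, and their median ratio was 0.33, -0.01 and 0.18 on arrays 1, 2 and 3, so it too was lowest on array 2. The summed level of the 8 was higher in Cy5 by 0.07, 0.12 and 0.56, among them Avp with ratios of -1.12, 0.28 and 2.05.

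**Figure D3:**
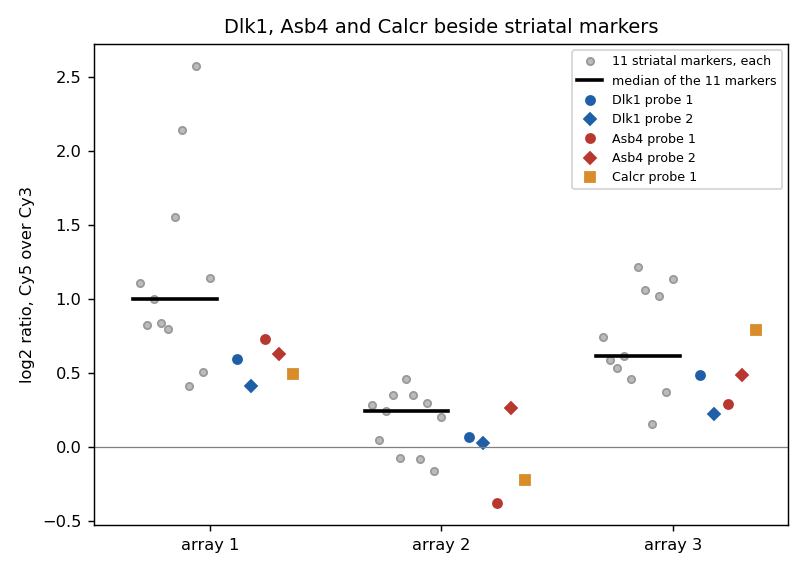
Log2 ratio of Cy5 over Cy3 (vertical axis) on arrays 1, 2 and 3 (horizontal axis) for 11 striatal marker genes (grey points, black bar their median) and the probes of Dlk1, Asb4 and Calcr (coloured symbols). The striatal median is 1.00, 0.24 and 0.62, and each of the coloured probes, chosen for this, is lowest on array 2, as are 28.0% of all kept probes.

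Gnas and H13, on chromosome 2, each had probes that went opposite ways. Gnas encodes the stimulatory G protein alpha subunit along with other products from several promoters. Its brightest probe gave 0.36, 0.28 and 0.30, a mean of 0.31 ± 0.05 (SD, n = 3; 1.24-fold, adjusted p = 0.0281 in limma), and its other kept probes had means of -0.05 and -0.21. At the brightness of the called Gnas probe the median ratio of all probes was 0.26, and with each brightness class set to 0 the probe stood at 0.05. In the processed signals it was 0.00 and with median centring 0.89, so its size depended on how bright probes were corrected. Gnas missed the threshold without array 2 or array 3 (adjusted p = 0.0502 and 0.105 in limma).

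H13 encodes the signal peptide peptidase, a protease of the endoplasmic reticulum. Its dimmest probe gave -0.28, -0.35 and -0.31, a mean of -0.31 ± 0.03 (SD, n = 3; 1.24-fold, adjusted p = 0.0274 in limma), and its brightest gave 0.35, 0.11 and 0.24 (adjusted p = 0.0730 in limma). The called probe is annotated to transcript variant 3 in the authors' deposited table and the brightest to variant 1, and these probes did not overlap on any array. Without array 2 or array 3 the called probe had an adjusted p of 0.0805 and 0.109 in limma.

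Of the 22 genes with several kept probes, 12 had all probes on the same side of 0 and 10 had probes with means of opposite sign. The distance between the means of a gene's probes was 0.78 for Mirg, 0.69 for Meg3, 0.55 for H13, 0.54 for Plagl1 and 0.52 for Gnas. Some but not all probes were called in 10 genes. A gene's call thus often held for 1 of its probes, and 15 genes had a single kept probe with no such comparison.

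**Figure D4:**
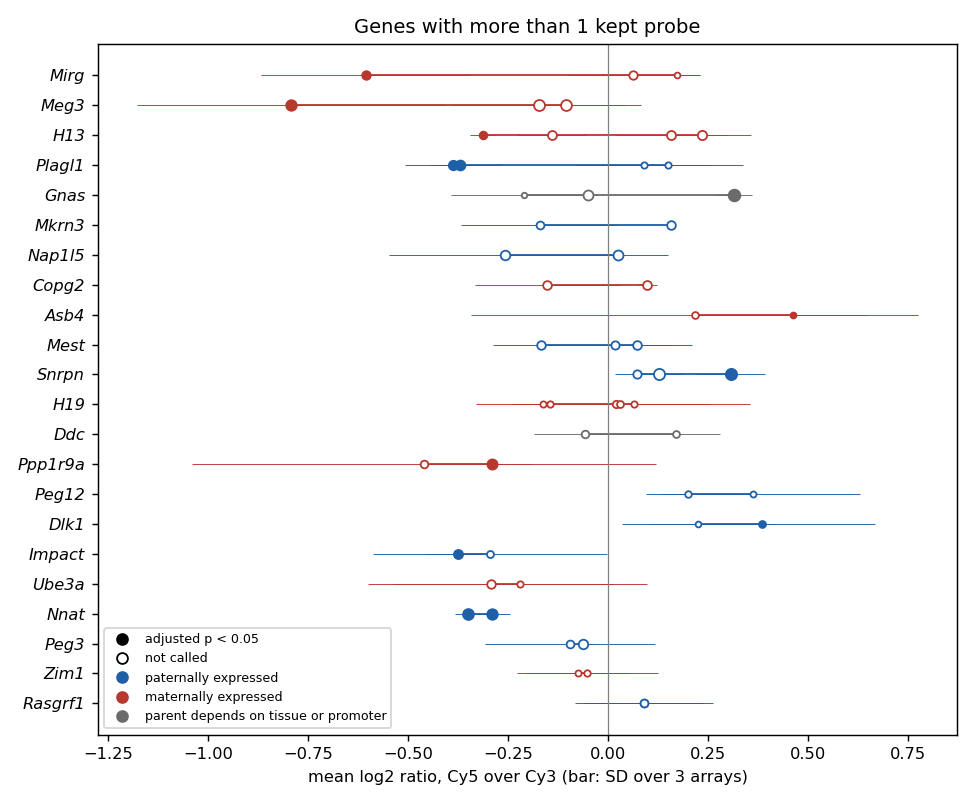
Mean log2 ratio of Cy5 over Cy3 (horizontal axis, thin bars SD over 3 arrays) of each kept probe in the 22 imprinted genes with more than 1 kept probe; larger symbols are brighter probes, filled symbols have an adjusted p under 0.05, and thick lines span the probes of a gene. Mirg and Meg3 span the widest ranges (0.78 and 0.69), and only Nnat has every probe filled; with median centring in place of loess its probes lie at 0.06.

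No probe passed the threshold in 6 clusters and 4 single genes. The growth factor gene Igf2 gave -0.24, -0.43 and 0.01 (adjusted p = 0.138 in limma), and the 5 kept probes of its neighbour H19, a noncoding RNA of the maternal copy, had means of -0.16 to 0.07 with adjusted p-values of 0.194 to 0.902 in limma. The brightest of these gave 0.29, -0.14 and -0.09. All 5 carry H19 only as their systematic name, and their strand and position were not checked. The only H19 probe with a RefSeq accession was not well above background in either channel on any array and was not kept. Igf2r, the receptor that clears IGF2, gave -0.16, -0.09 and -0.15. Dcn, which encodes the matrix protein decorin, gave -0.04, -0.04 and 0.28. None of these genes passed the test, and Igf2, Dcn and the brightest H19 probe had both signs over the arrays. Igf2 and Dcn are known from the meninges and vessels, and among 12 meningeal markers, all kept, 1 was called, with summed levels that differed by -0.06, -0.17 and -0.03.

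In the Peg3 domain on chromosome 7, Peg3, which encodes a zinc finger protein, gave -0.09, -0.07 and -0.03. The peptidase gene Usp29 gave 0.29, 0.10 and 0.11, and the zinc finger gene Zim1 -0.24, 0.11 and -0.02. On chromosome 11, the splicing factor gene Zrsr1 gave -0.45, -0.20 and -0.15 (adjusted p = 0.0634 in limma) and Commd1, within whose intron it lies, -0.13, -0.18 and -0.06. Zrsr1 and the transporter gene Slc22a18, at -0.13, -0.28 and -0.27 (adjusted p = 0.0674 in limma), were below 0 on each array and just missed the threshold, and Slc22a18 passed it without array 1 (-0.28, adjusted p = 0.0444 in limma).

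The remaining genes lay near 0. The adaptor gene Grb10 gave -0.17, 0.00 and -0.15, and Ddc, which encodes the decarboxylase that makes dopamine and serotonin, -0.08, -0.17 and 0.08. Mest, which encodes a hydrolase-like protein, gave -0.01, 0.16 and 0.06, and Copg2, a coat protein gene, 0.09, 0.12 and 0.08. Nap1l5, related to nucleosome assembly proteins, gave -0.11, 0.13 and 0.06, and Rasgrf1, a Ras exchange factor gene, -0.00, 0.01 and 0.26. The dimmer probes of Ddc, Mest, Copg2, Nap1l5 and Rasgrf1 had means of -0.26 to 0.17, and none was called. A simulated 1.5-fold change was recovered in 14% of probes and a 2-fold change in 65%, so a probe that was not called may still differ. The simulation changed 100 probes by each fold among 32983, far fewer than the 5568 called here. Its Benjamini-Hochberg cut-off was therefore stricter, and these shares do not give the recovery in these data.

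Of 37 imprinted genes outside the list 32 were measured, and 3 were called (9.38%, against 16.8% of all genes). Th, the first enzyme of dopamine synthesis, stood at 0.50 ± 0.19, and the organic cation transporter gene Slc22a3 at 0.47 ± 0.21 (SD, n = 3; adjusted p = 0.0159 and 0.0206 in limma). Sfmbt2, a polycomb gene, stood at -0.47 ± 0.17 (SD, n = 3; adjusted p = 0.0171 in limma). Of 26 genes for the setting and keeping of imprints, 23 were measured, and 8.70% were called, also against 16.8% of all genes. None was called brighter in Cy5 and 2 were called brighter in Cy3 by limma. These were the chromatin remodelers Atrx, at -0.47 ± 0.22, and Hells, at -0.31 ± 0.09 (SD, n = 3; adjusted p = 0.0218 and 0.0320 in limma). Of the 23, 20 had a ratio below 0, as had 11941 of all 23306 genes. Their median was -0.11 against -0.01 for all genes, and on arrays 1, 2 and 3 it was 0.00, -0.13 and -0.15, so it lay at 0 on array 1.

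The settings changed which of the 11 called genes passed more than their direction. Dio3, Mirg and Slc38a4 passed in 12 of 14 alternatives fitted here, Impact and Nnat in 10, Plagl1 in 9, Gnas, Ppp1r9a and Snrpn in 8, and Dlk1 and Ndn in 7. These counts include loess followed by Aquantile, which left each ratio and adjusted p as in the main fit, so no call could be lost there. Changed filters, 1 probe per gene and the unpaired fit kept the ratio, so only the adjusted p could change. Signs turned for Mirg and Gnas when the median of a gene's probes was used (0.01 and -0.04) and for Nnat with median centring (0.06).

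**Figure D5:**
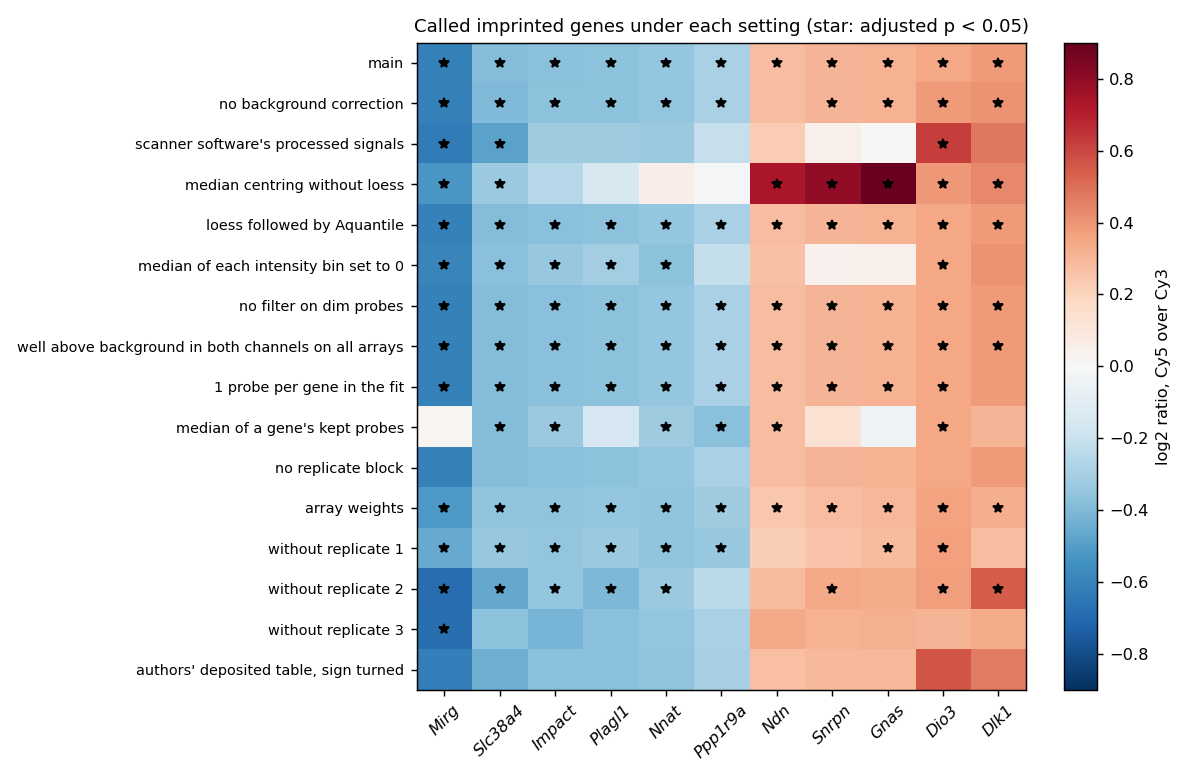
Log2 ratio of Cy5 over Cy3 (colour) of the 11 called imprinted genes (columns) under the settings used and each alternative (rows); a star marks an adjusted p under 0.05. Dio3, Mirg and Slc38a4 hold the most stars among the alternatives, 12 each, the setting without array 3 (replicate 3) has 1 star, and signs turn for Mirg, Gnas and Nnat in 1 row each. The row of loess followed by Aquantile repeats the main row by construction.

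A single slide carried the 3 arrays, and it was scanned once. Between 57.9% and 61.0% of the 59305 non-control spots of a channel were well above background, 70 of the 71 kept probes of imprinted genes were so in both channels on all 3 arrays, and no spot was saturated. The ratios of all kept probes correlated between arrays with r of 0.485 to 0.703, the arrays sharing their dye orientation. The 10 cortical neuron markers were kept, and 9 of them were well above background in both channels on all 3 arrays. The other, Emx1, a gene of dorsal cortex, was so in Cy3 on all 3 arrays and in Cy5 on 2, and its ratios were 0.65, -2.72 and -2.65, with array 1 apart from the others. Of the 10, 4 were called brighter in Cy5 (Tbr1, Slc17a7, Bcl11b and Mef2c) and 1 in Cy3 (Neurod6), and the part of this in the ratios of imprinted genes was not tested. Markers of the choroid plexus had summed levels that differed by -0.93, 0.81 and 0.08, with 1 of 12 called. Of 12 endothelial markers 2 were called brighter in Cy5, of 10 interneuron markers 3 were called brighter in Cy5 and 4 in Cy3, and of 8 oligodendrocyte markers none was called in limma, although their ratios were above 0 in 7 of 8.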

How the data were processed

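RNA of 3 pairs of pups was measured on 3 2-colour arrays. Per the file headers, the deposited scanner output gives for each spot, in Cy3 and Cy5, the median intensity and the median of the local background, not normalized. The processed intensity and the log10 ratio in the deposited files were made by the scanner software, which subtracted background and balanced the dyes per the file headers; the former served as an alternative, the latter was not used. The authors' deposited table gives log2 fold changes, scores and p-values per spot. limma was used per the submitters' processing notes; no source used here gives the direction or normalization of that table, so its sign was turned for comparison.

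Here intensities were corrected with normexp (offset 50) and loess in limma 3.58.1 under R 4.3.3, with control spots at weight 0 and 250 to 272 outlier spots per array left out. Repeated spots were averaged by probe. The filter kept probes that were well above background, in Cy3 or Cy5, on 2 or more arrays. An intercept-only fit with moderated variances tested each ratio against 0, two-sided, with Benjamini-Hochberg adjustment over 32983 probes. Probes were named by RefSeq accession (64 of 77), the authors' table (8) or the systematic name (5, all H19). Every listed gene is accounted for. Per-array values are given for each called probe and for kept genes of clusters without a call. Members and lists were chosen with earlier results of these data known. On simulated data in which 100 probes were changed 1.5-fold and 100 2-fold, far fewer than were called here, 2 false calls and no wrong sign occurred. Alternatives varied background, normalization, filter, probe choice, pairing, array weights and each array in turn. Depth is limited by the number of arrays. The samples carry the numbers 1 to 3 as pairs in the labels, and each pair shares an array.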

Additional observations from a re-analysis of the deposited data

How the results depend on the processing

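The alternatives, with the authors' deposited table among them, gave 611 values for named genes and probes. Of these, 514 stayed on the same side of the threshold, 84 lost their call with the sign kept, 9 gained a call and 4 reversed. The cause was not tested. A lost call did not require a smaller ratio: without array 3 Impact went from -0.37 to -0.42. Direction was compared only for values called in the main fit or the alternative, so uncalled values among the 514 could change sign. Meg3, called in neither, went from -0.17 to 0.27 with median centring. Loess followed by Aquantile left each value unchanged by construction. The reversed ones were Mirg at 0.015 and Gnas at -0.036 with the median of a gene's kept probes, and Nnat at 0.061 and its second probe at 0.065 with median centring.

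Against 6 genes called brighter in Cy3, 2 were called with the processed signals and 2 with median centring. Against 5 called brighter in Cy5, 1 was called with the processed signals, 1 with each intensity class set to 0 and 3 with the median of a gene's probes. Without the replicate block, that is with the 6 channels unpaired, 0 and 0 were called by limma (15 of 37 genes at an unadjusted p under 0.05), and 0 and 0 in the authors' deposited table (11 at an unadjusted p under 0.05). Leaving out 1 array gave 1 to 7 genes in Cy3 and 0 to 5 in Cy5.

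The median of maternally expressed genes, -0.05, became -0.093 with no background correction, -0.031 with the processed signals and 0.074 with median centring. It was -0.033 with no filter, -0.027 with the median of probes, and -0.11 to -0.062 with 1 array left out. That of paternally expressed genes, 0.02, became 0.15 with median centring, -0.014 with the median of probes and 0.064 with array weights. With 1 array left out it was 0.0026 to 0.094. Over all kept probes the median moved too, from -0.012 to 0.072 with median centring. In the authors' deposited table, sign turned, the medians were -0.13 for maternally and 0.10 for paternally expressed genes, and 0.084 over all kept probes listed there. That table stops at a p-value limit and holds the brightest probe of 28 of the 37 genes, so these medians cover fewer genes. Over all probes 5568 were called, against 1436 with the processed signals, 968 unpaired and 2217 without array 3. The filter on signal over background kept 71 of the 77 probes of imprinted genes and 32983 of all 55681 probes. It left Rtl1, Peg10 and Phlda2 without a probe. Of the 71 probes so selected, 70 were well above background in both channels on all 3 arrays.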
